A study of Mus musculus with 8 samples.

Results

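The 9 genes described here encode chemokine receptors of T helper (TH) cells, and were taken by their gene symbols from the 54146 genes with values in RNA-seq libraries of EL4 cells. They fell into 3 classes of 3 genes: the TH1-type receptors Cxcr3, Cxcr6 and Ccr2, the TH2-type receptors Ccr4, Ccr8 and Ccr3, and the other receptors Cxcr4, Cxcr5 and Ccr9. The classes follow the usual assignment of each receptor to a T helper lineage and did not use the measured values. The 9 receptors themselves were chosen with earlier results of these data known. EL4 is a mouse T lymphoblast line. The cells carried introduced FLAG-tagged T-bet (gene Tbx21), HA-tagged GATA3, or the fluorescent proteins GFP and Plum in their place, which gave 4 lines, named here by what they carried: a control (GFP + Plum), T-bet alone (T-bet + Plum), GATA3 alone (GFP + GATA3) and both factors (T-bet + GATA3). All 4 lines had been stimulated with PMA, a phorbol ester, at 50 ng/ml and ionomycin, a calcium ionophore, at 1 μM for 4 h before RNA was taken. Each line had 2 libraries (8 in all), and the study describes replicates as harvests of the same line, so that p-values here measure the spread between harvests of a line and not between independently made lines. The study's description of its RNA-seq names more replicates than the 2 libraries per line analysed here. Whether a line was 1 clone is not given in the sources used here.

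Chemokine receptors are G protein-coupled receptors that let T cells move along gradients of small secreted proteins, the chemokines, and that couple mainly to inhibitory G proteins. T helper cells change their set of receptors as they differentiate, and T-bet and GATA3 are the transcription factors that direct the TH1 and TH2 programmes. CXCR3 and CXCR6 are known as receptors of TH1 and effector cells in inflamed tissue, whereas CCR4 and CCR8 are associated with TH2 cells, regulatory T cells and homing to skin.

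The start sites of 4 receptors are shown because Cxcr3 and Cxcr6 rose together with T-bet while Ccr4 and Ccr8, of the same class, moved in opposite directions. Each sequence holds the 250 bases before the RefSeq start of the gene on GRCm38.p6, read 5′ to 3′ along the strand of the gene. These are chrX:101734148-101734397 on the minus strand for Cxcr3, chr9:123806227-123806476 on the plus strand for Cxcr6, chr9:114496545-114496794 on the minus strand for Ccr4 and chr9:120091883-120092132 on the plus strand for Ccr8. Capitals mark matches on either strand to a T-box core, which reads TCACAC forward and GTGTGA on the opposite strand, or to a GATA core, which reads AGATAA forward and TTATCT on the opposite strand.
Cxcr3: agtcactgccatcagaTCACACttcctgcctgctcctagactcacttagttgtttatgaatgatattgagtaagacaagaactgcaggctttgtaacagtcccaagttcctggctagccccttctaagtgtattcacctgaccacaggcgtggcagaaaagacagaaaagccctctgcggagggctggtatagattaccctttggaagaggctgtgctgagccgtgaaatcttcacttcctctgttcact
Cxcr6: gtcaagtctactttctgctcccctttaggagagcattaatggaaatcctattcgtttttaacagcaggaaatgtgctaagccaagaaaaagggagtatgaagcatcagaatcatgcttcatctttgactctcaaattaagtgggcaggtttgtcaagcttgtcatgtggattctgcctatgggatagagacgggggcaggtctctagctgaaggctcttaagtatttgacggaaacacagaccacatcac
Ccr4: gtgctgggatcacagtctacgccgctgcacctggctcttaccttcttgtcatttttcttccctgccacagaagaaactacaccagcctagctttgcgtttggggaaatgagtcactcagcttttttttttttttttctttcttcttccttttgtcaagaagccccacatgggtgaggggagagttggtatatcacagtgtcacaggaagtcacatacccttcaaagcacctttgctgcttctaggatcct
Ccr8: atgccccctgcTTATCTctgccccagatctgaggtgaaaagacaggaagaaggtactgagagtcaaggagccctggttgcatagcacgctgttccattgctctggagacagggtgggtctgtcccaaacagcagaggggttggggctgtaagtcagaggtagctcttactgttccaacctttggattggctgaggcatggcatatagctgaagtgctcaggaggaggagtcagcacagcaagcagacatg
The Cxcr3 window held a T-box core 234 bases before the start and the Ccr8 window a GATA core in reverse 239 bases before it, while the Cxcr6 and Ccr4 windows held neither. Among the 8 members with a RefSeq entry, the only other matches were GATA cores before Ccr2 (97 bases, in reverse) and Ccr3 (30 bases, forward). Windows of Cxcr4 and Ccr9 held no match. Of 32851 RefSeq promoter windows of the same length, 12.3% held the T-box core and 9.99% the GATA core. A further motif, TGATAA, which reads TTATCA on the opposite strand and shares its last 5 letters with the GATA core, was in none of the 8 windows and in 7.94% of all. A match to these letters is a description and shows no binding. The RefSeq start of Ccr4 lies inside the longer Gencode gene, at chr9:114490316-114504916, and that of Ccr9 lies inside the Gencode gene at chr9:123678439-123784330. Those of Cxcr3, Ccr2, Ccr8 and, by a few bases, Cxcr6 also lie inside their Gencode genes. The Gencode gene of Ccr2 begins at chr9:124101950. Its window, chr9:124101933-124102182, therefore lies mostly inside the gene, as does the GATA core in it. Distances given here are from RefSeq starts and differ from Gencode starts for these genes.

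The libraries held between 8038565 and 16003519 estimated counts, and in every line replicate 1 held fewer than replicate 2. Tbx21 mRNA was at 52.4 to 70.2 TPM (the length-scaled share of a library's transcripts) in the T-bet lines and at 0.755 to 1.71 TPM in the GFP lines. Gata3 was at 138.0 to 300.0 TPM in the GATA3 lines and at 11.4 to 27.6 TPM in the Plum lines. Within the GATA3 lines it was lower with T-bet (164.3 and 138.0 TPM) than without it (262.6 and 300.0 TPM), and introduced and endogenous Gata3 mRNA cannot be told apart in these values. Of 9 T cell genes checked, Cd3d, Cd3e, Cd3g, Lck, Thy1 and Trac were at 1 TPM or more in every library, Cd4 was at 0.235 to 2.49 TPM, and Cd247 and Cd8a were below 1 TPM in every library. All 5 B cell genes and all 6 stromal and epithelial genes were below 1 TPM in every library, and of 6 myeloid genes only Cd68 reached 1 TPM. In bulk RNA, a smaller share of cells with a receptor and less receptor mRNA per cell cannot be told apart.

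T-bet was accompanied by higher mRNA of the 3 TH1-type receptors and of the TH2-type receptor Ccr8, and by lower mRNA of Ccr4, Cxcr4, Cxcr5 and Ccr9. Of the 9 receptors, 8 had enough counts to be tested in the fit of 14791 genes. With the effect of T-bet estimated over both GATA3 states from all 8 libraries, each of the 8 passed an adjusted p of 0.05 in edgeR's quasi-likelihood test with Benjamini-Hochberg adjustment, where 15.2% of all tested genes did. Of the 8, 4 were higher, where 8.55% of all genes passed as higher, and 4 were lower, where 6.61% passed as lower. To be called, a gene also needed its log2 fold change (FC) to exceed 1.5 in either direction. By that rule 4 receptors were called (Ccr8, Ccr2, Cxcr3 and Cxcr6), against 4.5% of all tested genes, and all 4 were higher, against 2.91%. The median log2 FC of the 8 was 0.66, beside 0.02 over all genes. Ccr2 is among the 8 only through its counts with T-bet. The receptors were also chosen with earlier results of these data known, so these figures are a description. In T-bet + Plum versus GFP + Plum 4 receptors passed the adjusted p (6.2% of all genes) and 3 of them were called (Ccr2, Ccr8 and Cxcr3), where 3.02% of all genes were. In T-bet + GATA3 versus GFP + GATA3 the passing receptors numbered 5 (5.77% of all genes) and the called ones 4 (Ccr8, Cxcr6, Cxcr3 and, lower, Ccr4), where 2.85% were. In T-bet + GATA3 versus GFP + Plum 4 passed (4.87% of all genes) and 3 were called (Ccr8, Cxcr3 and Cxcr6), where 2.61% were. These comparisons share libraries and are not independent of each other.

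**Figure D1:**
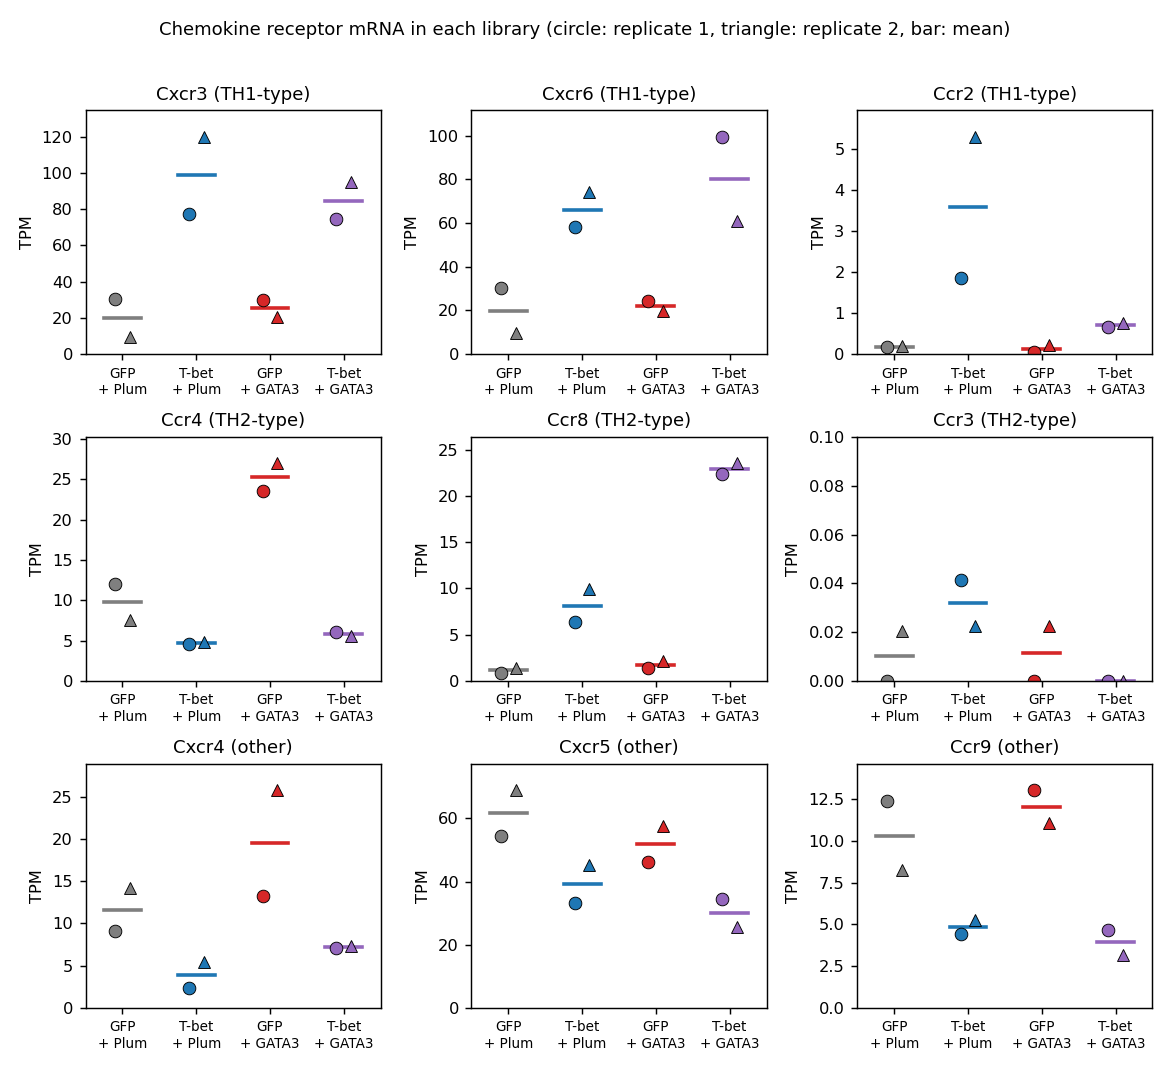
TPM (linear axis from 0, a separate scale in each panel) of the 9 receptors in the 4 lines, with a circle for replicate 1, a triangle for replicate 2 and a bar for their mean. For each receptor other than Ccr3 the libraries with T-bet do not overlap those of the matched GFP line.

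Among the TH1-type receptors, Cxcr3 (ENSMUSG00000050232.6, chrX:101731535-101734269, minus strand) encodes the receptor for the interferon-induced chemokines CXCL9 and CXCL10. Its mRNA was at 30.6 and 9.34 TPM in GFP + Plum, 77.6 and 120.3 TPM in T-bet + Plum, 29.8 and 20.4 TPM in GFP + GATA3, and 74.7 and 94.9 TPM in T-bet + GATA3. All 4 libraries with T-bet lay above all 4 without it, and within the GFP + Plum line the replicates differed 3.28-fold. Cxcr3 rose 5.28-fold in T-bet + Plum versus GFP + Plum (log2 FC 2.40 ± 0.46 SE, edgeR adjusted p = 0.0210) and 3.83-fold in T-bet + GATA3 versus GFP + GATA3 (log2 FC 1.94 ± 0.45, adjusted p = 0.0459). The rise in the GATA3 background did not pass with scaling by library size alone (edgeR adjusted p = 0.0553) or by limma on log2(TPM + 1) (0.103). Over both GATA3 states the log2 FC was 2.17 ± 0.32 (adjusted p = 0.00328). The rise in T-bet + Plum missed the threshold without either library of that line (adjusted p of 0.0508 and 0.141), and its log2 FC was 3.36 without GFP + Plum replicate 1. The rise in the GATA3 background missed it without any of the 6 libraries outside GFP + Plum (0.0708 to 0.276). The rise over both states passed in every fit that left out a library.

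Cxcr6 (ENSMUSG00000048521.8, chr9:123806475-123811760, plus strand) encodes the receptor for the membrane-bound chemokine CXCL16. It was at 30.1 and 9.38 TPM in GFP + Plum, 58.0 and 74.1 TPM in T-bet + Plum, 24.0 and 19.45 TPM in GFP + GATA3, and 99.6 and 61.0 TPM in T-bet + GATA3. As for Cxcr3, the 4 libraries with T-bet lay above the 4 without it, and GFP + Plum replicate 1 was 3.20-fold above replicate 2. The rise was 4.27-fold in the GATA3 background (log2 FC 2.10 ± 0.47, edgeR adjusted p = 0.0397). That rise did not pass by limma on log2(TPM + 1) (adjusted p = 0.0875). It was lost without any of 5 libraries (both of T-bet + Plum, both of GFP + GATA3 and T-bet + GATA3 replicate 1), at adjusted p of 0.0736 to 0.242. In the Plum background the log2 FC was 1.83 ± 0.46 with an adjusted p of 0.0609, which did not pass in edgeR and passed in DESeq2 (0.0299). Over both states it was 1.96 ± 0.33 (adjusted p = 0.00612) and passed without any 1 library.

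Ccr2 (ENSMUSG00000049103.14, chr9:124101950-124113557, plus strand) encodes the receptor for CCL2 and is best known on monocytes and effector T cells. Its estimated counts were 8 and 11 in GFP + Plum, 45 and 253 in T-bet + Plum, 2 and 10 in GFP + GATA3, and 22 and 40 in T-bet + GATA3, which corresponded to 0.160 and 0.198, 1.84 and 5.29, 0.0396 and 0.206, and 0.667 and 0.754 TPM. The libraries with T-bet were again the 4 highest, but the T-bet + Plum replicates differed 2.87-fold. Ccr2 passed the filter on low counts through the T-bet lines, since only 1 of the 4 libraries without T-bet was above its limit. It rose in T-bet + Plum (log2 FC 4.26 ± 0.63, edgeR adjusted p = 0.00740, and 3.21 without T-bet + Plum replicate 2). In the GATA3 background the log2 FC was 2.49 ± 0.70, which did not pass in edgeR (adjusted p = 0.0855) and passed in DESeq2 (0.0142). Over both states it was 3.37 ± 0.47 (adjusted p = 0.00240), and 3.96 without GFP + GATA3 replicate 2. On log2(TPM + 1), which compresses low values, limma gave 1.23 (adjusted p = 0.0147).

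The 2 measurable TH2-type receptors went opposite ways with T-bet. Ccr4 (ENSMUSG00000047898.7, on the minus strand) encodes the receptor for CCL17 and CCL22. It was at 12.0 and 7.51 TPM in GFP + Plum, 4.63 and 4.77 TPM in T-bet + Plum, 23.5 and 27.0 TPM in GFP + GATA3, and 6.06 and 5.56 TPM in T-bet + GATA3. The 2 GFP + GATA3 libraries were the highest of the 8 and the 4 libraries with T-bet the lowest, so that T-bet + GATA3 lay closer to T-bet + Plum than to GFP + GATA3. Ccr4 fell by 1.98 ± 0.22 on the log2 scale in T-bet + GATA3 versus GFP + GATA3 (edgeR adjusted p = 0.00221). In T-bet + Plum versus GFP + Plum it fell by 0.98 ± 0.23 (adjusted p = 0.0440). The latter did not pass without GFP + Plum replicate 1 or any library of T-bet + Plum or GFP + GATA3 (adjusted p of 0.0684 to 0.223), nor in a fit of these 4 libraries alone (0.0881) or by limma on log2(TPM + 1) (0.112). Over both states Ccr4 fell by 1.48 ± 0.16 (adjusted p = 0.000713). The difference between the 2 T-bet effects was a log2 FC of -1.001 ± 0.31, with a p of 0.0129 in edgeR before adjustment over all genes and an adjusted p of 0.9999. Gata3 mRNA was also lower with T-bet, and its part in the result was not tested.

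Ccr8 (ENSMUSG00000042262.5, chr9:120092114-120094906, plus strand) encodes the receptor for CCL1. Although it belongs to the TH2-type class, it was at 0.842 and 1.42 TPM in GFP + Plum, 6.33 and 9.90 TPM in T-bet + Plum, 1.37 and 2.09 TPM in GFP + GATA3, and 22.4 and 23.5 TPM in T-bet + GATA3. The 4 libraries with T-bet were the highest, and those with both factors lay above those with T-bet alone. The rise was 7.35-fold in the Plum background (log2 FC 2.88 ± 0.37, edgeR adjusted p = 0.00389) and 14.7-fold in the GATA3 background (log2 FC 3.88 ± 0.36, adjusted p = 0.000918). T-bet + GATA3 stood 21.7-fold above GFP + Plum (log2 FC 4.44 ± 0.37, adjusted p = 0.000594). The log2 FC of GATA3 in cells with T-bet was 1.56 ± 0.31, which did not pass in edgeR (adjusted p = 0.479) and passed in DESeq2 (log2 FC 1.57, adjusted p = 0.0148). In cells without T-bet it was 0.56 ± 0.40, and the difference between these effects was 1.001 ± 0.51 (p of 0.0867 in edgeR before adjustment, adjusted p of 0.9999).

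Ccr3, which encodes the eotaxin receptor of eosinophils and some TH2 cells, had at most 1 count in any library (ENSMUSG00000035448.9, chr9:124021972-124031689, plus strand). It was thus under the limit of 3 counts that a count of 0 allows, which corresponded to 0.187 to 0.373 CPM (counts scaled to the library's total), in every line, and no difference was detectable at this depth. That limit covers counting error only.

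**Figure D2:**
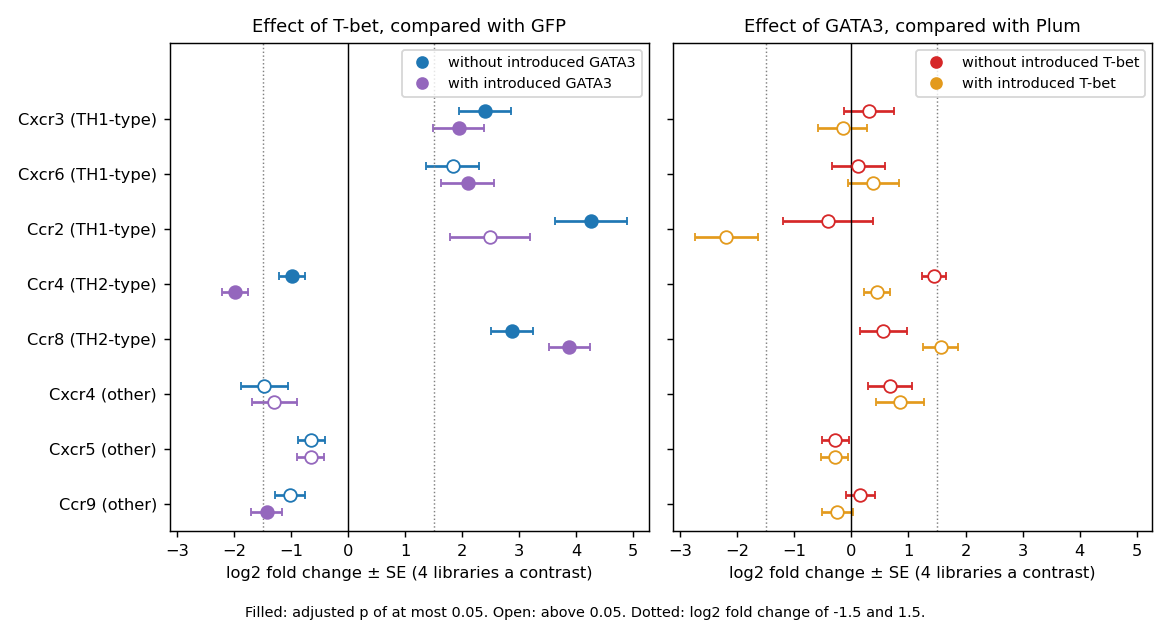
log2 FC ± SE for the 8 tested receptors, for T-bet (left) and for GATA3 (right), each without and with the other factor. Each contrast compares 4 libraries, and the SE is derived from edgeR's F statistic in the fit of all 8 libraries. Filled points have an adjusted p of at most 0.05 in that fit. T-bet moved Ccr4 and Ccr8, both TH2-type, in opposite directions, and no GATA3 contrast has a filled point.

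The 3 receptors of neither class were lower with T-bet. Cxcr4 (ENSMUSG00000045382.6, chr1:128588199-128592293, minus strand) encodes the receptor for CXCL12, which retains lymphocytes in bone marrow and lymphoid tissue. It was at 9.11 and 14.2 TPM in GFP + Plum, 2.28 and 5.46 TPM in T-bet + Plum, 13.3 and 25.8 TPM in GFP + GATA3, and 7.06 and 7.36 TPM in T-bet + GATA3. The replicates of T-bet + Plum differed 2.39-fold and those of GFP + GATA3 1.94-fold. Over both GATA3 states Cxcr4 fell by 1.38 ± 0.29 on the log2 scale (edgeR adjusted p = 0.0152). Without T-bet + Plum replicate 1 or GFP + GATA3 replicate 2 the adjusted p was 0.0501 and 0.0554. Neither background passed alone in edgeR (adjusted p of 0.0864 and 0.110), whereas both passed in DESeq2 (0.00569 and 0.0211).

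Cxcr5 (ENSMUSG00000047880.15, chr9:44511787-44561877, minus strand) encodes the receptor for CXCL13, which guides follicular helper T cells and B cells to follicles. It was the most abundant of the 9 receptors in GFP + Plum (54.5 and 68.9 TPM) and in GFP + GATA3 (46.1 and 57.5 TPM), and was at 33.1 and 45.2 TPM in T-bet + Plum and at 34.4 and 25.7 TPM in T-bet + GATA3. The 4 libraries with T-bet lay below the 4 without it, with 45.2 and 46.1 TPM as the nearest values. Over both states Cxcr5 fell by 0.65 ± 0.17 on the log2 scale (edgeR adjusted p = 0.0356). The fall did not pass without any 1 of 6 libraries, the exceptions being GFP + Plum replicate 1 and T-bet + GATA3 replicate 1 (adjusted p of 0.0540 to 0.124), and with offsets for transcript length (0.0698).

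Ccr9 (ENSMUSG00000029530.16, plus strand) encodes the receptor for CCL25, which directs thymocytes and gut-homing T cells. It was at 12.4 and 8.24 TPM in GFP + Plum, 4.39 and 5.26 TPM in T-bet + Plum, 13.0 and 11.05 TPM in GFP + GATA3, and 4.66 and 3.17 TPM in T-bet + GATA3. The 4 libraries with T-bet were all below the 4 without it. Ccr9 fell by 1.43 ± 0.27 in the GATA3 background (edgeR adjusted p = 0.0199), which did not pass without either GFP + GATA3 library or T-bet + GATA3 replicate 2 (0.0594 to 0.106). In the Plum background the log2 FC was -1.02 ± 0.26, which did not pass in edgeR (adjusted p = 0.0654) and passed in DESeq2 (0.00875). Over both states Ccr9 fell by 1.23 ± 0.19 (adjusted p = 0.00397) and passed without any 1 library.

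Comparison of T-bet + GATA3 with GFP + Plum asked what the receptors did when both factors were present. Ccr8, Cxcr3 (log2 FC 2.25 ± 0.45, edgeR adjusted p = 0.0305) and Cxcr6 (2.22 ± 0.47, 0.0361) rose and Ccr9 fell by 1.27 ± 0.27 (0.0352). Ccr4 had a log2 FC of -0.53 ± 0.22 (0.261), Cxcr4 of -0.62 ± 0.40 (0.495), Cxcr5 of -0.94 ± 0.24 (0.0691) and Ccr2 of 2.07 ± 0.65 (0.133). Of these, Cxcr5 (0.00329) and Ccr2 (0.0476) passed in DESeq2. The rises of Cxcr3 and Cxcr6 and the fall of Ccr9 did not pass by limma on log2(TPM + 1) (0.0604, 0.0652 and 0.0676). Nor did they pass in an edgeR fit of the libraries of this comparison alone (0.0865, 0.128 and 0.126). The Cxcr3 rise was lost without any of the 4 T-bet libraries (0.0504 to 0.0957). The Cxcr6 rise and the Ccr9 fall were each lost without any of 6 libraries. For Cxcr6 these were all but GFP + Plum replicate 1 and T-bet + GATA3 replicate 2 (0.0539 to 0.184), and for Ccr9 all but GFP + Plum replicate 2 and T-bet + GATA3 replicate 1 (0.0570 to 0.110). Without GFP + Plum replicate 1 the log2 FCs of Cxcr3 and Cxcr6 were 3.21 and 3.16.

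With GATA3 no receptor passed the adjusted p in the edgeR fit of 14791 genes, in cells with or without T-bet. In edgeR with no filter on low counts Ccr4 passed without T-bet (adjusted p = 1.31e-08). With T-bet, Ccr2 (3.16e-06) and Ccr8 (8.11e-06) passed in that unfiltered fit. Over both T-bet states Ccr4, Ccr8, Ccr2 and Cxcr4 passed in it (5.15e-07 to 0.00901). That fit gave a far smaller adjusted p for T-bet too, such as 1.88e-20 for Cxcr6 in T-bet + Plum, beside 0.0609 in edgeR with the filter. The share of all genes that passed in the unfiltered fit was not computed, so these passes are not read as GATA3 effects on the receptors. In GFP + GATA3 versus GFP + Plum 0 of 8 were called, where 0.0203% of all genes (3 genes) were, and 1 had an unadjusted p under 0.05, as did 547 of all 14791 genes. That was Ccr4, whose 2 GFP + GATA3 libraries lay above both GFP + Plum libraries (log2 FC 1.45 ± 0.22, 2.73-fold, edgeR adjusted p = 0.144). DESeq2 gave Ccr4 an adjusted p of 3.72e-05 at a log2 FC of 1.45, below the limit of 1.5, and also called 0. Between T-bet + GATA3 and T-bet + Plum the edgeR fit of 14791 genes called 0 of 8, where 0.0338% of all genes were called. Of the 8, 2 had an unadjusted p under 0.05, as did 559 of all genes. These were Ccr8, the only one of the 8 that DESeq2 called, and Ccr2 (log2 FC -2.19 ± 0.55, edgeR adjusted p = 0.814). Averaged over both T-bet states the GATA3 effect passed for none of the 8 in the edgeR fit of 14791 genes. Of all genes 0.0608% passed there and 0.0473% were called. Of the 8, 4 had an unadjusted p under 0.05 (Ccr4, Ccr8, Ccr2 and Cxcr4), as did 733 of all genes. DESeq2 called 0 there too, and gave Ccr4 an adjusted p of 0.000521. The effect of T-bet did not differ detectably between the GATA3 states for any receptor. Both edgeR and DESeq2 called 0 of 8 for that difference, edgeR called 0% of all 14791 genes, and 1 receptor (Ccr4) had an unadjusted p under 0.05, as did 381 of all genes.

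Summed per class, TH1-type receptors made up 60.8 and 18.9 TPM in GFP + Plum, 137.5 and 199.7 TPM in T-bet + Plum, 53.9 and 40.1 TPM in GFP + GATA3, and 174.9 and 156.6 TPM in T-bet + GATA3. TH2-type receptors made up 12.9 and 8.94, 11.0004 and 14.7, 24.9 and 29.1, and 28.5 and 29.1 TPM in the same order. The TH1-type sum thus separated libraries with T-bet from those without, while the TH2-type sum separated libraries with introduced GATA3 from those without. The TH2-type sums of the 2 GATA3 lines overlapped but had different contents. In GFP + GATA3 the sum was mostly Ccr4 (25.3 ± 2.42 TPM, SD, n = 2), and in T-bet + GATA3 mostly Ccr8 (23.0 ± 0.799 TPM, n = 2). Accordingly, Ccr8 over Ccr4 was 0.0699 and 0.189 in GFP + Plum, 1.37 and 2.07 in T-bet + Plum, 0.0584 and 0.0777 in GFP + GATA3, and 3.69 and 4.23 in T-bet + GATA3. The TH1-type share of TH1-type plus TH2-type TPM was 82.5% and 67.9% in GFP + Plum, 92.6% and 93.1% in T-bet + Plum, 68.4% and 58.0% in GFP + GATA3, and 86.0% and 84.3% in T-bet + GATA3. Cxcr3 over Ccr4 was between 0.758 and 2.54 in the libraries without T-bet and between 12.3 and 25.2 in those with it. These sums and ratios are given without a test.

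**Figure D3:**
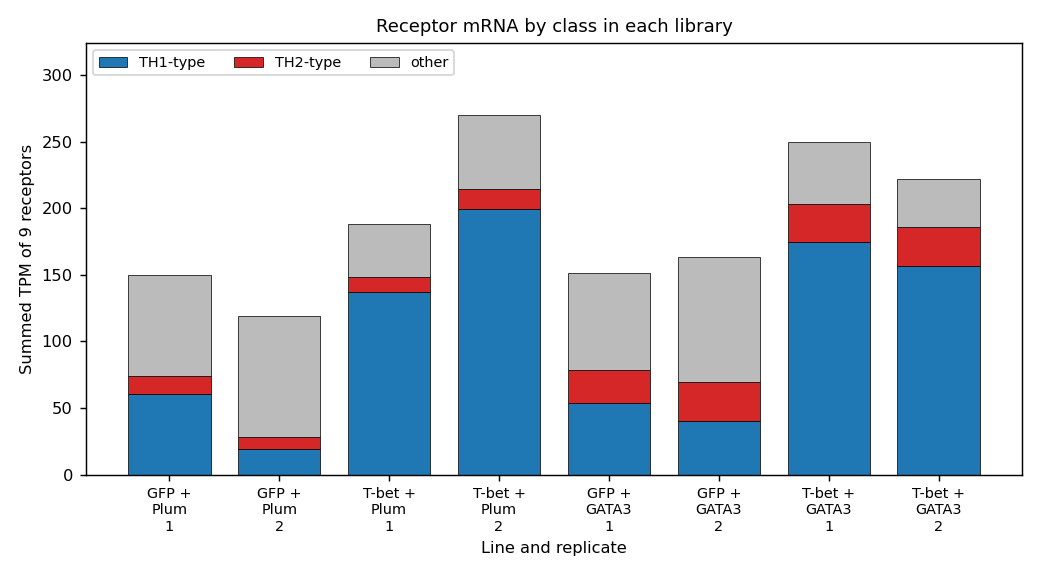
Summed TPM of the 9 receptors in each library, stacked by class (TH1-type, TH2-type, other). The TH1-type part is 137.5 TPM or more in the libraries with T-bet and 60.8 TPM or less in those without, and the TH2-type part is largest in the GATA3 lines.

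The order of levels, compared per transcript length in TPM, also differed between lines. In GFP + Plum it ran from Cxcr5 through Cxcr3, Cxcr6, Cxcr4, Ccr9 and Ccr4 to Ccr8, Ccr2 and Ccr3, and the replicates of neighbours overlapped from Cxcr3 down to Ccr4. In GFP + GATA3 Ccr4 stood directly after Cxcr5, although its range overlapped that of Cxcr3, and Cxcr3, Cxcr6 and Cxcr4 overlapped in turn. In T-bet + Plum Cxcr3, Cxcr6, Cxcr5 and Ccr8 led without overlap, followed by Ccr9, Ccr4, Cxcr4 and Ccr2, whose ranges overlapped in turn. In T-bet + GATA3 Cxcr3 and Cxcr6 led and overlapped, and below them Cxcr5, Ccr8, Cxcr4, Ccr4, Ccr9 and Ccr2 followed without overlap.

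Of the 9 receptor genes, 7 lie on chromosome 9, and 4 of these (Ccr9, Cxcr6, Ccr3 and Ccr2) share a stretch of 435.1 kb from Ccr9 to Ccr2 (chr9:123678439-124113557, Gencode M21 on GRCm38). T-bet effects along it, over both GATA3 states, had both signs. At one end Ccr9 fell, as did Lztfl1, a neighbour that is no receptor (log2 FC -0.77, edgeR adjusted p = 0.00706). Fyco1, which overlaps Cxcr6 on the opposite strand, had a log2 FC of 0.11 (adjusted p = 0.665) between 2.78 and 4.34 TPM in all libraries, whereas Cxcr6 rose. Ccr2 at the far end rose. Between Cxcr6 and Ccr2, the genes Xcr1, Ccr1, Ccr1l1 and Ccr3 had too few counts to be tested. Of the 10 protein-coding genes that overlap the stretch 6 were tested.

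**Figure D4:**
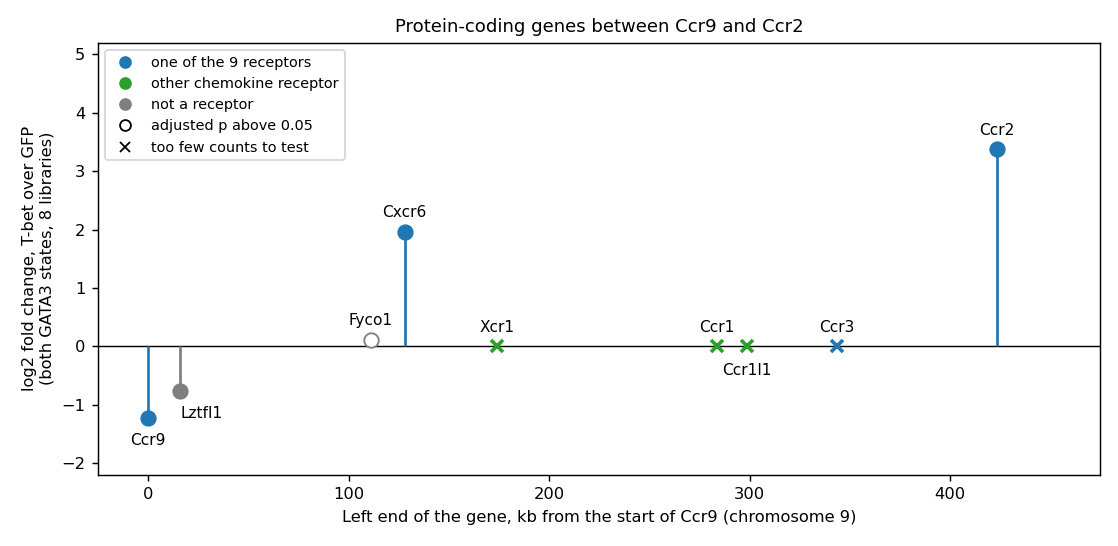
T-bet log2 FC over both GATA3 states (8 libraries) of the protein-coding genes from Ccr9 to Ccr2, against the distance of their left ends from that of Ccr9 in kb. Ccr9 and Lztfl1 lie below 0, Cxcr6 and Ccr2 above it, Fyco1 near 0, and crosses mark genes with too few counts.

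Several of these genes share sequence or position with others, which affects how reads were assigned. Cxcr3, Cxcr6 and Ccr8 shared no 31-base word with transcripts of another gene. Ccr2 shared 3.48% of its words with other genes, and Ccr9 shared 21.7% of its words with other genes, mostly in AC165425.1, a transcript that overlaps it. Ccr9 overlaps Lztfl1, and Cxcr5 overlaps Bcl9l (80 shared words), in each case on opposite strands. The strand setting of the counting is not given in the sources used here, so reads of such pairs may not be told apart. Lztfl1 was at 57.2 to 157.2 TPM and Ccr9 at 3.17 to 13.0 TPM, both lower with T-bet. The genes that shared most words with Ccr9 were AC165425.1, Gm17200 and Olfr1156, and Lztfl1 was not among these. The part of Lztfl1 reads in the Ccr9 values was not tested.

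The transcripts that made up each receptor were estimated by kallisto, which splits reads among overlapping models. Cxcr3, Ccr8 and Ccr3 had 1 transcript each. Cxcr6 was at least 90.3% ENSMUST00000049810.8 in every library. Ccr4 was divided between ENSMUST00000054414.4, of 2805 bases, and ENSMUST00000215425.1, of 1382 bases. The former made 47.0 ± 1.07% of Ccr4 TPM in GFP + Plum, 46.9 ± 17.7% in T-bet + Plum, 58.7 ± 5.24% in GFP + GATA3 and 54.0 ± 1.37% in T-bet + GATA3 (SD, n = 2). The replicate spread of T-bet + Plum spans all these means. Cxcr4 was 70.5 to 85.7% ENSMUST00000052172.6 by line means and Cxcr5 76.3 to 81.2% ENSMUST00000062215.7. These shares depend on the measure. Over the 8 libraries the mean share of this Cxcr5 transcript was 78.1% of TPM and 96.9% of estimated counts. For ENSMUST00000054414.4 of Ccr4 these were 51.6% and 68.6%, and for ENSMUST00000052172.6 of Cxcr4 76.9% and 87.1%. Ccr9 was 83.3 to 90.9% ENSMUST00000168910.1 in the other 3 lines by means. In T-bet + GATA3 its mean was 39.6%, because the estimate for replicate 2 was near 0 and its reads were assigned to other Ccr9 transcripts.

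Among 25 other receptors (9 conventional, 5 atypical and 11 for other chemoattractants), 5 were tested. In T-bet + Plum versus GFP + Plum 1 rose and 0 fell, and the same counts held in the GATA3 background, where 6.2% and 5.77% of all tested genes passed in either direction. Over both GATA3 states 2 rose and 1 fell, where 8.55% of all genes passed as higher and 6.61% as lower. Gpr183, a receptor for oxysterols, had 0 or 1 count in each library without T-bet and 23 to 50 counts in each with it, and rose in both backgrounds (edgeR adjusted p of 0.00517 and 0.00475), but in the GATA3 background missed the threshold without GFP + GATA3 replicate 2 (0.0649). It entered the test only through the libraries with T-bet, since none of the 4 without it was above the limit of the filter. Over both states Ccrl2, an atypical receptor, rose with 9 to 17 counts against 3 to 6 (adjusted p = 0.0282), and likewise passed the filter only through libraries with T-bet. That call was lost without any of 6 libraries, all but replicate 2 of the T-bet lines (0.0586 to 0.118), and by limma (0.0717). Ccr7, which guides T cells into lymph nodes, fell by 1.32 ± 0.23 (adjusted p = 0.00785), from 1.81 to 2.66 TPM in the GFP lines to 0.666 to 0.943 TPM in the T-bet lines.

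Of 17 ligands of the 9 receptors, 6 were tested, and over both GATA3 states 3 rose and 0 fell, beside 8.55% and 6.61% of all genes. Ccl1, the ligand of CCR8, was at 401.2 to 1210 TPM in the libraries without T-bet and at 3038 to 6283 TPM in those with it. Its log2 FC was 2.70 ± 0.22 in the Plum and 3.15 ± 0.22 in the GATA3 background (edgeR adjusted p of 0.000475 and 0.000232). Ligand and receptor were therefore both higher in the same 4 libraries. Ccl5 rose with a log2 FC of 1.84 ± 0.39 over both states (adjusted p = 0.0161), and was lost without GFP + GATA3 replicate 2 or T-bet + GATA3 replicate 1 (0.0514 to 0.0658). Cxcl9, a CXCR3 ligand, had 0 to 2 counts without T-bet and 7 to 18 with it (adjusted p = 0.0142), and passed the filter only through libraries with T-bet. It was lost without T-bet + Plum replicate 1 or GFP + GATA3 replicate 2 (0.0548 to 0.0683) and by limma (0.0922). Ccl22, a ligand of CCR4, was at 4.72 to 46.4 TPM without T-bet and 27.8 to 80.2 TPM with it, ranges that overlapped (log2 FC 1.73 ± 0.63, adjusted p = 0.107). Ccl25, the ligand of CCR9, had a log2 FC of -0.04 ± 0.14 (adjusted p = 0.894).

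Of 40 genes for G protein signalling and receptor desensitisation, 38 were tested, and over both GATA3 states 6 rose and 2 fell, beside 8.55% and 6.61% of all genes. Grk5, a kinase that desensitises G protein-coupled receptors, rose in both backgrounds (log2 FC 4.33 ± 0.25 and 4.30 ± 0.26, edgeR adjusted p of 8.30e-05 and 0.000106). Ptk2b, the kinase Pyk2 that acts downstream of chemokine receptors, rose by a log2 FC of 1.54 ± 0.09 over both states (adjusted p = 3.82e-05). Rgs3, Dock2 and Elmo1 also rose there, by log2 FCs of 1.25, 0.69 and 0.71. Rgs18, with 23 and 27 counts in GFP + Plum and 0 and 3 in T-bet + Plum, fell there (adjusted p = 0.0493), a call that DESeq2 (0.0971) and the removal of any of 6 libraries, all but those of T-bet + GATA3 (0.0885 to 0.189), ended. Only the 2 libraries of GFP + Plum put it above the limit of the filter. Over both states it fell too (adjusted p = 0.0145, and 0.0504 without GFP + GATA3 replicate 1).

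For each called receptor the protein-coding genes most like it were sought among 8940 genes with a mean of at least 5 CPM, as the smallest root mean square difference of centred log2 CPM over the 8 libraries. Closest to Cxcr6 was Fgf2, a fibroblast growth factor, at 0.144 log2 units, and then Apba1 at 0.237, where Cxcr6 itself varied by 1.117. Closest to Cxcr3 were Cotl1 (0.317) and Lexm (0.325), where Cxcr3 varied by 1.22. For Ccr4 they were Trib2 (0.258) and Rbfox2 (0.279), for Ccr8 Fam46c (0.434) and Cym (0.480), and for Ccr2 Tesk1 (0.669) and Cd52 (0.670). With a prior count of 0.5 in place of 2, the gene after Trib2 for Ccr4 was Ptgr1 (0.280), and the other called receptors kept the same genes. These are descriptions over 8 libraries that share the split by T-bet.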

How the data were processed

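Poly-A RNA of 8 EL4 libraries (4 lines, 2 libraries each) was sequenced. According to the study's methods and the submitters' processing notes, the authors trimmed reads with Trim Galore, checked them with FastQC and quantified them with kallisto against Gencode mouse transcripts on GRCm38. The deposited files are named for release M18 and the methods name M20, and neither the tool versions nor a strand setting are given in the sources used here. The deposited estimated counts of each transcript are kallisto's split of reads among transcripts, before any normalization. The deposited TPM values are those counts divided by effective length and scaled to a fixed total per library by the authors' run of kallisto. Here both were summed by gene identifier, with symbols from the transcript names (136535 transcripts, 54146 genes), and counts were rounded to whole numbers.

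Counts were filtered with filterByExpr and scaled by the trimmed mean of M-values (TMM), and all 8 libraries were fitted by edgeR's quasi-likelihood test (edgeR 4.0.16, R 4.3.3) with 1 term per line (14791 genes, 4 residual degrees of freedom). P-values were adjusted by the method of Benjamini and Hochberg over all tested genes in each comparison. "Rose" and "fell" mean an adjusted p of at most 0.05, and a call also needs a log2 FC over 1.5 in size. The difference between T-bet effects had no such limit. Effects over both states are means of the pair of contrasts. Values in TPM are levels, and log2 FCs come from counts. Alternatives were DESeq2 1.42.0, limma 3.58.1 on log2(TPM + 1), length offsets, other filters, scaling and fits, and each library left out. The scripts were tested on simulated data.

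The genes named are the 9 receptors, genes called in lists of other receptors, ligands and signalling genes, others given as context after their values were seen, and, for called receptors, the nearest 2 genes in pattern (prior count 2). The members and lists were chosen with earlier results of these data known. The signalling list also held Grk2 and Grk3, for which no symbol matched. One further gene of the receptor list is not reported here. Positions are from Gencode M21 (54079 gene identifiers found), and promoter sequences from RefSeq. Replicates differed beyond counting noise (chi-square per degree of freedom of 10.2 to 30.9), so none was a copy. Replicate numbers pair no harvests in the labels. Python 3.11.15, numpy 2.4.6, pandas 2.3.3 and matplotlib 3.10.9 were used.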

Additional observations from a re-analysis of the deposited data

How the results depend on the processing

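Of 1527 log2 FCs recomputed under the alternatives, 1346 kept their direction and their side of the adjusted p of 0.05. A further 81 no longer passed that threshold, most of them on leaving out a library, and 68 newly passed it. The other 32 reversed direction, none of which had an adjusted p of at most 0.05. These counts did not use the log2 FC limit. Some of the 81 had therefore never been calls, and some of the 68 did not become calls. With 2 libraries per line of 1 made line each, low counts (Ccr2, Ccr3) and the spread of GFP + Plum (Cxcr3, Cxcr6) limit what can be told. The causes of these changes were not tested. Ranked by CPM, which is not scaled to length, in place of TPM, 4 of the 9 receptors kept their place in the order of levels in GFP + Plum, 5 in T-bet + Plum, 7 in GFP + GATA3 and 4 in the line with both factors. The count of called receptors for T-bet + Plum versus GFP + Plum went from 3 to 5 with DESeq2, with or without length offsets, and with no filter (2 to 4 on leaving out a library). For T-bet + GATA3 versus GFP + GATA3 it went from 4 to 2 with limma on log2(TPM + 1) (2 to 4 on leaving out a library), and for GATA3 in cells with T-bet from 0 to 1 with DESeq2, with or without length offsets, and to 2 with no filter. For T-bet + GATA3 versus GFP + Plum it went from 3 to 1 with limma and in a fit of those libraries alone (1 to 3 on leaving out a library). Over both GATA3 states it went from 4 to 8 without the log2 FC limit (4 to 6 on leaving out a library). The lowest count over both states in any alternative was 3. Apart from the count without the log2 FC limit, the share of all genes called under these alternatives was not computed. The changes in these counts are therefore not read as results about the receptors.

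Direction reversed only for differences far from the threshold. The difference in T-bet effect was -0.088 for Cxcr6 with limma, and for Cxcr5 0.0027 with DESeq2, 0.041 and 0.027 with length offsets in DESeq2 and edgeR, and 0.023 with no filter. On leaving out a library, GATA3 alone ranged from -0.26 to 1.27 for Cxcr3, -0.44 to 1.06 for Cxcr6, -1.59 to 0.092 for Ccr2 and -0.031 to 0.38 for Ccr9. GATA3 with T-bet ranged from -0.43 to 0.21 for Cxcr3, -0.13 to 0.75 for Cxcr6 and -0.67 to 0.090 for Ccr9, and GATA3 over both T-bet states from -0.21 to 0.56, -0.030 to 0.72 and -0.26 to 0.13 for the same genes. The difference in T-bet effect ranged from -1.43 to 0.11 for Cxcr3, -0.68 to 0.82 for Cxcr6, -0.29 to 0.83 for Cxcr4 and -0.33 to 0.24 for Cxcr5.

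With the replicate number as a replicate block, 4, 5 and 4 receptors were called for T-bet + Plum and T-bet + GATA3 against their matched GFP lines and for T-bet + GATA3 versus GFP + Plum, 4 over both GATA3 states, and 0 for GATA3 and for the difference. The share of all genes called with this block was not computed. Same-numbered libraries deviated together only weakly (r of -0.0455 to 0.302 across genes, mean 0.142), so the numbers were not taken as pairs.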
